A study of Mus musculus with 4 samples.

Results

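Collagen only becomes a stable, load-bearing fibre after a chain of enzymatic steps, and the 10 mouse genes described here encode enzymes, or their subunits, of the oxygen-dependent ones. They are the prolyl 4-hydroxylase subunits P4ha1, P4ha2, P4ha3 and P4hb, the lysyl hydroxylases Plod1, Plod2 and Plod3, and the lysyl oxidases Lox, Loxl1 and Loxl2. The genes were chosen by name, with earlier results of these data known, and all 10 were found among the 38293 genes of the deposited table. All 10 passed the filter on low counts.

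RNA sequencing measured polyadenylated transcripts in ventricles of single mouse embryos at E12.5, with the atria and valve region removed. The cKO group (2 embryos) had the genotype Hif1alphaflox/flox/Nkx2.5Cre/+, and the control group (2 embryos) had Hif1alphaflox/flox/Nkx2.5+/+. All 4 embryos came from litter 6 on a C57BL/6 background, KO and control hearts were matched by somite count, and all carried the floxed Hif1a gene. Cre sits in the Nkx2-5 locus, so deletion is driven in heart muscle precursors and other cells that have expressed Nkx2-5. No group carried Cre without floxed Hif1a, so effects of Cre, or of its place in Nkx2-5, cannot be told apart from those of Hif1a loss. The question is how loss of Hif1a, whose protein is the part of HIF-1 that oxygen controls, alters transcripts of the embryonic heart.

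Libraries held between 8561687 and 19801300 expected counts. The deepest, cKO replicate 3, was also the only male by its Y-linked genes. Hif1a had 716 and 663 CPM in cKO libraries, against 530 and 552 CPM in controls (log2 fold change 0.35 ± 0.09 SE, edgeR adjusted p = 0.317). Counts cover the entire transcript, including exons that remain, and do not check the deletion. The heart muscle markers were abundant, with all 12 tested and summed levels of 41186 to 44776 CPM in cKO and 43142 to 45314 CPM in control libraries, and none passed the test (0 at an unadjusted p under 0.05, and 0 by DESeq2 or limma-voom). Expected counts are RSEM's estimated counts, in which reads that fit several genes are divided. CPM is the count divided by library size, scaled between libraries by TMM. Every fold change is cKO over control. A gene is said to have fallen only where edgeR's quasi-likelihood test gave an adjusted p under 0.05 over all 13711 genes tested.

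In the endoplasmic reticulum, prolyl 4-hydroxylases turn prolines of new collagen chains into 4-hydroxyproline, which keeps the triple helix stable at body temperature. Lysyl hydroxylases turn lysines into hydroxylysine, which carries sugars and shapes the later crosslinks. Both use molecular oxygen, iron, 2-oxoglutarate and ascorbate. Lysyl oxidases are secreted copper enzymes, also oxygen-dependent, that oxidise lysines of collagen and elastin so that the chains crosslink. In human and rodent cells in culture, P4HA1, P4HA2, PLOD2, LOX and LOXL2 are among the genes known to be raised by low oxygen through HIF-1. HIF-1 binds DNA at a short core, ACGTG or GCGTG.

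Promoters are shown for P4ha1 and P4ha2, whose log2 fold changes were the lowest among the hydroxylases, and for P4hb, their partner subunit, whose log2 fold change was the nearest to 0 of the 10. Each runs from 250 bases before to 50 bases after the RefSeq start on GRCm38.p6, 5′ to 3′ on the gene's strand. They lie at chr10:59323046-59323345 (plus strand), chr11:54100674-54100973 (plus strand) and chr11:120573204-120573503 (minus strand). Capitals mark ACGTG and GCGTG on either strand, so that the reverse complements CACGT and CACGC are in capitals too.
P4ha1: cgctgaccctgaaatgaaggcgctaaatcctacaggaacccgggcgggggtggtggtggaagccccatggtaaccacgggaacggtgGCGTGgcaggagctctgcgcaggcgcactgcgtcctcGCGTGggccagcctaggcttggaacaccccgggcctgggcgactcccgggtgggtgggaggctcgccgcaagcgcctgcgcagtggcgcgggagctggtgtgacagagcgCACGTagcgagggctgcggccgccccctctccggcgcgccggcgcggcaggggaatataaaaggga
P4ha2: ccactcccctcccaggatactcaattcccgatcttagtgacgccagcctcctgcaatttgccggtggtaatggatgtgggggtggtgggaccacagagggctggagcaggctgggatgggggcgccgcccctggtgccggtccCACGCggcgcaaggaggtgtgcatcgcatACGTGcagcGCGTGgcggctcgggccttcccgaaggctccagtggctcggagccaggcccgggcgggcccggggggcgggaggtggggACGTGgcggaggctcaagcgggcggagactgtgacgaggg
P4hb: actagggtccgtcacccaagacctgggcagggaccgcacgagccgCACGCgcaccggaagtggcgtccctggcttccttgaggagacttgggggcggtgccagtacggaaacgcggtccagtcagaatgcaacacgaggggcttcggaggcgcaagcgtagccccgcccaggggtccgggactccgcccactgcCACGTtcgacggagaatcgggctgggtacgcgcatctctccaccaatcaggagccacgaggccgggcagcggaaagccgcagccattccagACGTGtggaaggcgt

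P4ha1 held 1 ACGTG, on the minus strand and beginning 16 bases before the start, and 2 GCGTG. P4ha2 held 2 ACGTG, 1 beginning 78 bases before the RefSeq start and 1 after it, and 2 GCGTG. The whole P4ha2 window lies inside the gene's GENCODE span, which begins at 54100095. Bases before this RefSeq start may therefore be transcribed too. P4hb held 2 ACGTG and 1 GCGTG, so ACGTG was as frequent in it as in P4ha2. A RefSeq promoter was matched for 6 of the 10 genes; those of Plod2, Lox, Loxl1 and Loxl2 are not used here. ACGTG stood in 4 of these 6 (P4ha1, P4ha2, P4hb and Plod3), against 19.6% of all 32851 promoters of the same length. Either core stood in 5 of the 6, P4ha3 having none, against 43.8% of all promoters. The 6 promoters had 53.3% to 70.3% G and C, above the median of 52.7% over all promoters. Both cores hold C followed by G, and the shares over all promoters were not matched for G and C content. They are therefore no like background for these 6. A match describes letters in this window, not a bound site.

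Of the 10 genes, 2 fell in the cKO ventricles and none rose: the lysyl oxidase Loxl2, by 2.01-fold, and the prolyl 4-hydroxylase subunit P4ha1, by 1.68-fold. Over all 13711 genes tested, 0.511% were called by the same test, 0.365% lower (50 genes) and 0.146% higher (20 genes). DESeq2 called the same 2 of the 10, and 0.7% of all genes. P4ha2 was the next in line. It ranked 71 by p-value where 70 genes passed, with an adjusted p of 0.0506. All 10 log2 fold changes were negative, with a median of -0.27, against -0.00031 over all genes tested, of which 6873 were negative and 6838 positive. In 8 of the 10, both cKO libraries lay below both controls, against 18.8% of all genes tested (19.4% lay the other way). The exceptions were Lox and Loxl1. Because the 10 were chosen with earlier results of these data known, their shared direction is no independent evidence. At an unadjusted p under 0.05 stood 5 of the 10 (Loxl2, P4ha1, P4ha2, Plod2 and Plod1), all lower in cKO, against 3.58% of all genes lower at that level, 3.39% higher and 6.97% either way.

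**Figure D1:**
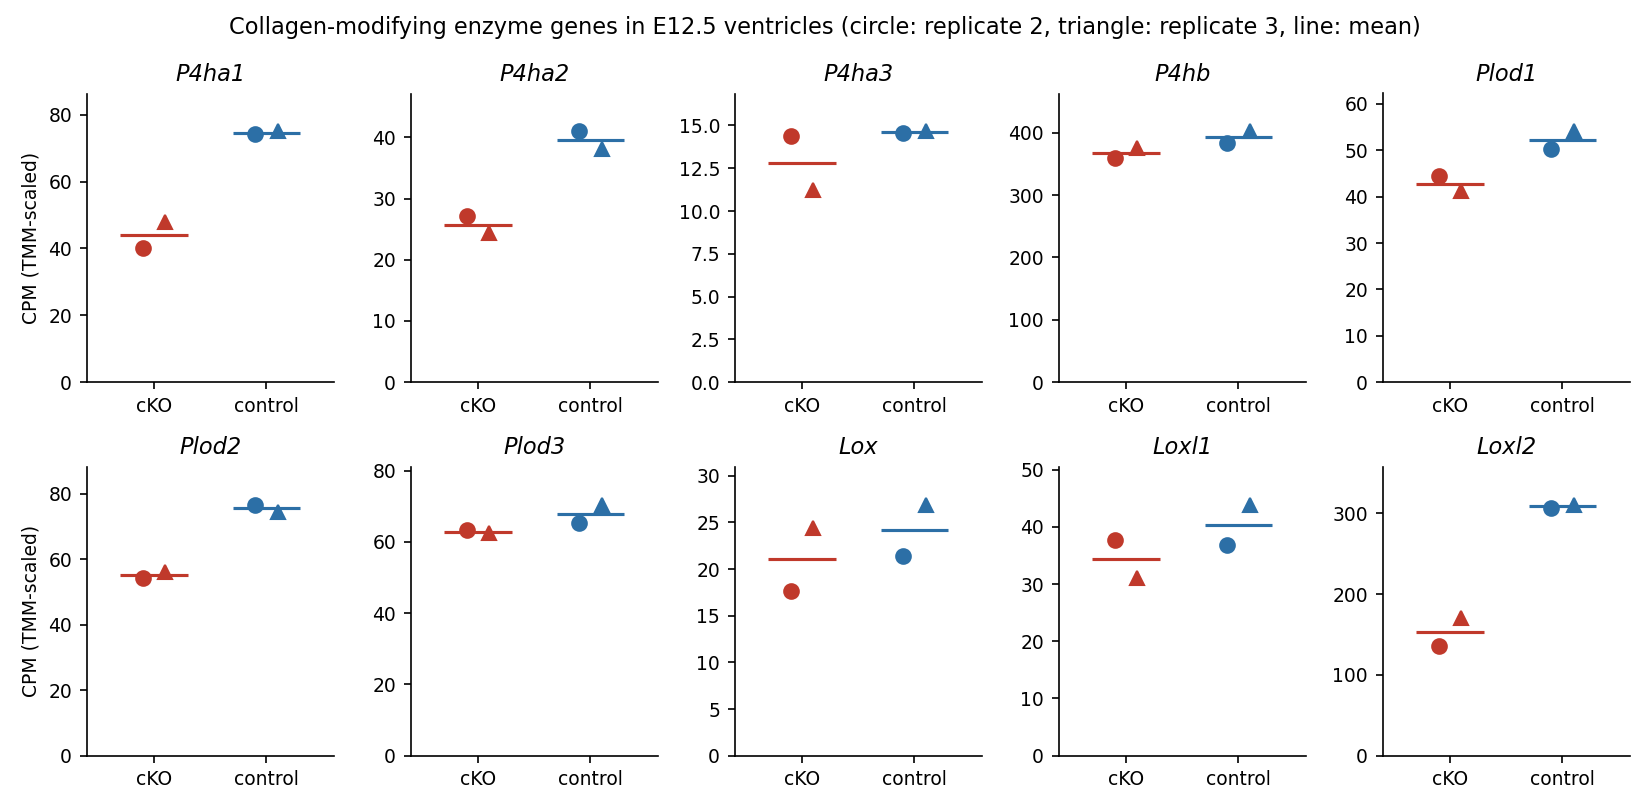
CPM, scaled by TMM, of each of the 10 genes in the 4 libraries; circles are replicate 2, triangles replicate 3, lines the group mean, and every axis starts at 0. In Loxl2, P4ha1, P4ha2 and Plod2 the gap between the groups is wide beside the spread within them, while in Lox and Loxl1 the groups overlap.

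Among the prolyl 4-hydroxylase genes, P4ha1 encodes the main catalytic alpha subunit in most tissues. P4ha1 (ENSMUSG00000019916, GRCm38 chromosome 10, 59323296 to 59373304, plus strand) had 40.3 and 47.8 CPM in cKO replicates 2 and 3, against 74.1 and 75.1 CPM in control replicates 2 and 3. The controls lay within 1 CPM of each other and both cKO libraries were well below them. Its log2 fold change was -0.75 ± 0.11 (SE; 95% interval -0.995 to -0.51), and it fell (edgeR adjusted p = 0.0238). The call was lost without control replicate 2 (adjusted p = 0.0916) or control replicate 3 (0.136), although the log2 fold change stayed at -0.76 and -0.74. Against a null of a 1.5-fold change, the log2 fold change did not pass either.

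P4ha2, a second catalytic alpha subunit, is prominent in cartilage-forming and endothelial cells. P4ha2 (ENSMUSG00000018906, chromosome 11, 54100095 to 54131665, plus strand) had 27.2 and 24.3 CPM in cKO libraries, against 41.02 and 38.2 CPM in controls, with no overlap. Its log2 fold change of -0.63 ± 0.10 (95% interval -0.86 to -0.39) had an adjusted p of 0.0506, just outside the threshold. With DESeq2's size factors in place of TMM it lay just inside, at 0.0490. Under the other 13 ways of processing it did not pass.

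P4ha3 encodes a less abundant alpha subunit. P4ha3 (ENSMUSG00000051048, chromosome 7, 100285520 to 100319699, plus strand) had 14.4 and 11.3 CPM in cKO libraries, against 14.5 and 14.7 CPM in controls. Replicate 2 of the cKO group was thus level with the controls, and the log2 fold change was -0.21 ± 0.17 (95% interval -0.59 to 0.18, adjusted p = 0.84). It was -0.024 without cKO replicate 3 and -0.375 without cKO replicate 2. P4hb encodes protein disulfide isomerase, which holds the alpha subunits in solution as the beta subunit of the enzyme and folds many other secreted proteins. P4hb (ENSMUSG00000025130, chromosome 11, 120560298 to 120573253, minus strand) was the most abundant of the 10 per kilobase of transcript (means of 129 CPM per kilobase in cKO and 137 in controls), with 360 and 376 CPM in cKO libraries, against 383 and 403 CPM in controls. The 95% interval of its log2 fold change (-0.09 ± 0.08) ran from -0.28 to 0.09 (adjusted p = 0.858), and a value as low as the -0.75 of P4ha1 lies outside it.

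To set genes beside each other, levels were divided by the length in kilobases of the longest GENCODE transcript. Which transcripts were expressed was not checked, so ratios between genes depend on that annotated length. On this scale the alpha subunits summed to 24.8 and 24.5 CPM per kilobase in cKO libraries, against 37.8 and 37.1 in controls. P4hb stood at 5.07 and 5.37 times that sum in cKO libraries and at 3.54 and 3.79 times it in controls. The beta subunit's transcript was thus in larger excess in both cKO libraries. P4ha1 made up 40.1% and 48.4% of the alpha subunit level in cKO libraries, against 48.5% and 50.003% in controls. P4ha3 made up 24.1% and 19.1% in cKO libraries, against 16.0% and 16.4% in controls. For P4ha1 the difference in share was -5.02 percentage points, but -0.893 without cKO replicate 2. The share of P4ha2 overlapped between the groups. With 2 libraries against 2, a two-sided exact permutation test cannot go below p = 0.333. The ratio and the shares of P4ha1 and P4ha3 reached that floor; with no division by length the P4ha1 shares overlapped (exact permutation p = 0.667). No difference of shares, here or for the enzymes below, could pass a threshold of 0.05.

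**Figure D2:**
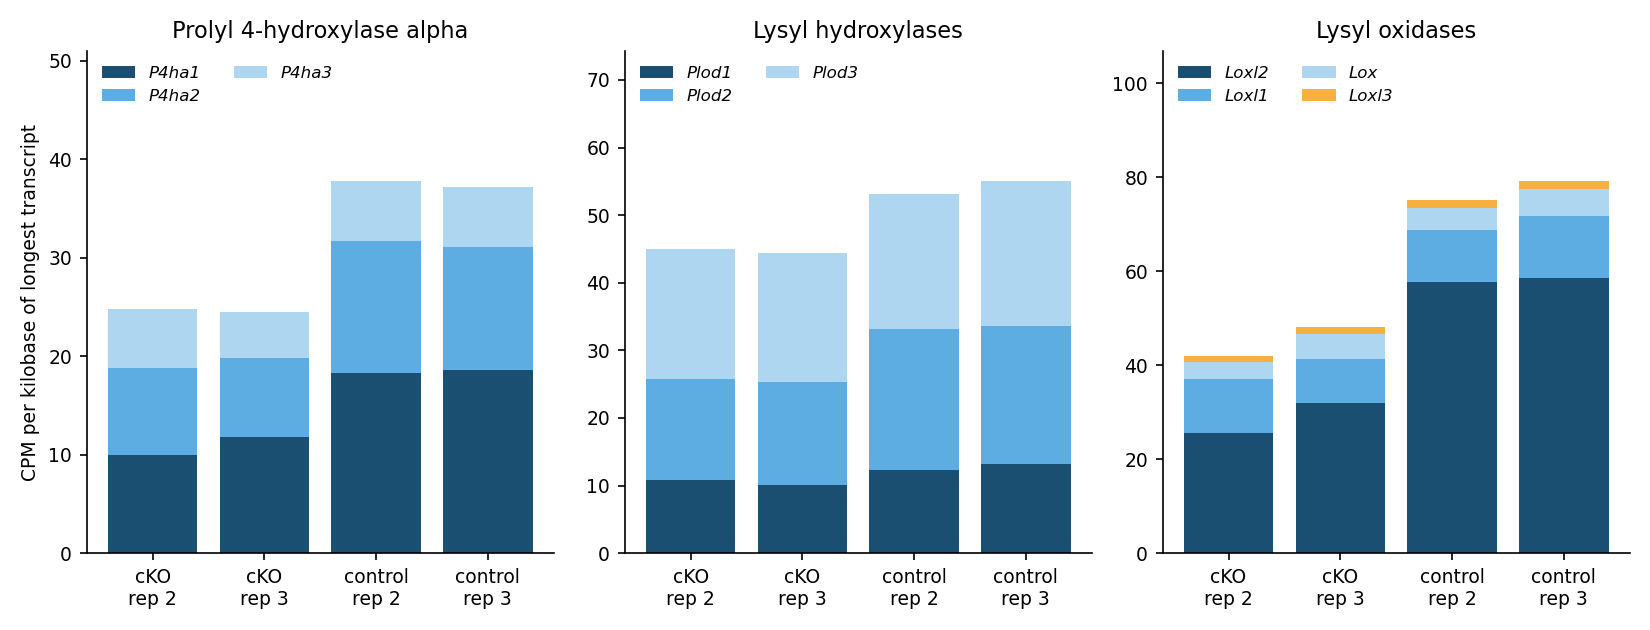
CPM per kilobase of the longest GENCODE transcript, stacked by gene, for the prolyl 4-hydroxylase alpha subunits, the lysyl hydroxylases and the lysyl oxidases, 1 bar per library. The stacks are lower in both cKO libraries in each panel, and most of the gap in the lysyl oxidase panel lies in Loxl2.

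Among the lysyl hydroxylases, Plod2 acts on the telopeptides of fibrillar collagen, the ends through which chains are crosslinked. Plod2 (ENSMUSG00000032374, chromosome 9, 92542223 to 92608428, plus strand) had 54.4 and 56.2 CPM in cKO libraries, against 76.7 and 74.5 CPM in controls. The libraries of each group lay close together and the groups were well apart. Its log2 fold change of -0.45 ± 0.09 (95% interval -0.65 to -0.25) did not pass after adjustment (adjusted p = 0.100, unadjusted p = 0.000745).

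Plod1, which hydroxylates lysines of the triple helix, had the smaller difference of -0.29 ± 0.09 (95% interval -0.51 to -0.07, adjusted p = 0.545). Plod1 (ENSMUSG00000019055, chromosome 4, 147909753 to 147936767, minus strand) stood at 44.4 and 41.2 CPM in cKO libraries, against 50.2 and 54.1 CPM in controls. Plod3 both hydroxylates lysines and adds sugars to them, and is needed for the basement membrane collagen of the early mouse embryo. Plod3 (ENSMUSG00000004846, chromosome 5, 136987019 to 136996648, plus strand) had 63.3 and 62.5 CPM in cKO libraries, against 65.3 and 70.5 CPM in controls. Its log2 fold change was -0.11 ± 0.09 (95% interval -0.31 to 0.09, adjusted p = 0.841). Exons of Plod3 overlap those of Znhit1 on the opposite strand over 529 bases. Plod2 overlaps Gm38391 over 346 bases and Loxl2 overlaps Gm27177 over 301 bases, likewise on the opposite strand. Whether the counting used strand is not given in the sources used here, so reads of those stretches may belong to either gene.

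Summed over the lysyl hydroxylases, the level was 45.0 and 44.4 CPM per kilobase in cKO libraries, against 53.1 and 55.0 in controls. Plod2 and Plod3 were nearly equal in controls, where Plod2 held 39.4% and 37.0% and Plod3 held 37.5% and 39.0%. In cKO libraries Plod2 held 33.01% and 34.5%, and Plod3 42.9% in both. Neither pair of shares overlapped between the groups, while that of Plod1 did.

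Loxl2 encodes a lysyl oxidase with scavenger receptor domains that crosslinks the type IV collagen of basement membranes. Loxl2 (ENSMUSG00000034205, chromosome 14, 69609068 to 69695834, plus strand) had 136 and 170 CPM in cKO libraries, against 307 and 311 CPM in controls. The controls nearly coincided and both cKO libraries lay far below them, replicate 2 the lower. Its log2 fold change was -1.01 ± 0.11 (95% interval -1.26 to -0.76), and it fell (edgeR adjusted p = 0.00631), ranking 32 of all genes by p-value. Without control replicate 3 the adjusted p was 0.0583, with a log2 fold change of -1.001. Against a null of a 1.5-fold change it did not pass (glmTreat adjusted p = 0.151).

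A pseudogene on the same chromosome, Gm21451, matches the Loxl2 transcript at 100% identity over 2348 bases, so reads of that stretch cannot be assigned to 1 of them. RSEM gave the pseudogene few counts, 18.98 and 99.25 in cKO libraries and 46.37 and 98.61 in controls, beside 1344 and 3382 for Loxl2 in cKO libraries and 2595 and 2818 in controls. With the pair summed, the log2 fold change was -1.02 (adjusted p = 0.00743). No other of the 10 genes had a copy of at least 95% identity over at least 300 bases.

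Lox, the founding lysyl oxidase, is needed for the elastic fibres and collagen of the developing great vessels. Lox (ENSMUSG00000024529, chromosome 18, 52516067 to 52529867, minus strand) had 17.7 and 24.4 CPM in cKO libraries, against 21.4 and 26.9 CPM in controls. The groups overlapped, and the log2 fold change was -0.18 ± 0.18 (95% interval -0.58 to 0.23, adjusted p = 0.876). Without cKO replicate 2 it was 0.015, and without control replicate 3 it was -0.0025, so the difference rested on single libraries of both groups. Loxl1, which helps to maintain elastic fibres in mice, overlapped as well. Loxl1 (ENSMUSG00000032334, chromosome 9, 58287738 to 58313186, minus strand) had 37.7 and 31.1 CPM in cKO libraries, against 36.8 and 43.9 CPM in controls (log2 fold change -0.24 ± 0.13, 95% interval -0.54 to 0.05, adjusted p = 0.759). That value was -0.097 without cKO replicate 3, -0.104 without control replicate 3 and -0.372 without cKO replicate 2.

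The remaining paralogs had few reads. Loxl3, known in mice for its part in palate and spine formation, had 4.96 and 6.48 CPM in cKO libraries, against 7.57 and 7.17 CPM in controls (log2 fold change -0.34 ± 0.23, adjusted p = 0.801). Loxl4 had 0 and 3 counts in cKO libraries and 0 and 1 in controls, which is at or under the floor of 3 counts, and was not tested. Loxl2 thus made up most of the lysyl oxidase level per kilobase in every library, with 60.9% and 66.3% in cKO libraries, against 76.7% and 73.8% in controls. The sum over the 5 genes was 42.0 and 48.2 CPM per kilobase in cKO libraries, against 75.2 and 79.2 in controls.

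**Figure D3:**
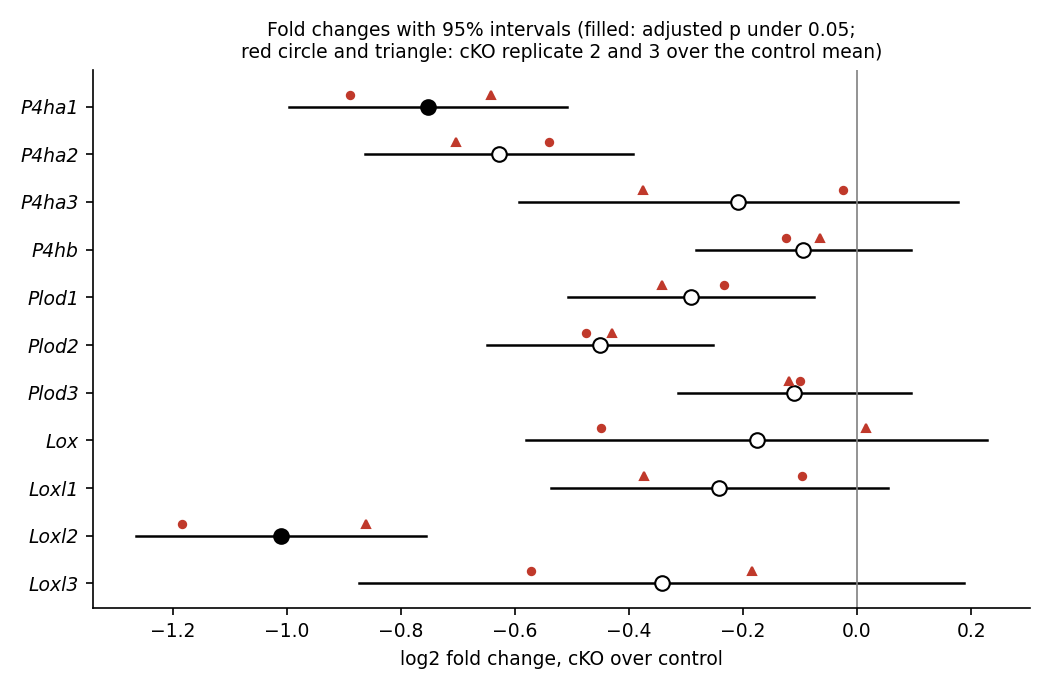
Log2 fold change of each of the 10 genes and of Loxl3, cKO over control, with its 95% interval; filled points passed the test, and red circles and triangles give cKO replicates 2 and 3 against the control mean. Loxl2 (-1.01) and P4ha1 (-0.75) are filled, the intervals of P4ha2, Plod2 and Plod1 also stay below 0, and the remaining intervals cross 0.

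The 2 cKO libraries did not stand equally far from the controls. Against the control mean, Loxl2 stood at -1.18 and -0.86 on the log2 scale in cKO replicates 2 and 3, and P4ha1 at -0.89 and -0.64. P4ha2 ran the other way, with -0.54 and -0.70, and Plod2 hardly differed, with -0.47 and -0.43. Replicates of the control group differed by 0.019 in both Loxl2 and P4ha1. Lox and Loxl1 differed between the controls by 0.33 and 0.26, more than their group fold changes.

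No collagen chain gene, the substrates of these enzymes, passed the test. Of 30 such genes 29 were tested, and edgeR, DESeq2 and limma-voom each called 0. Their median log2 fold change was -0.04, 19 being negative. At an unadjusted p under 0.05 stood 5, all lower in cKO, against 3.58% of all genes tested lower at that level. Both cKO libraries lay below both controls in 8 of the 29, against 18.8% of all genes tested. They lay above both controls in 2, against 19.4%. Col12a1, a collagen associated with fibril surfaces, had the smallest p, with 52.2 and 42.5 CPM in cKO libraries, against 67.6 and 64.4 CPM in controls (log2 fold change -0.49 ± 0.11, adjusted p = 0.241). The summed level of the fibrillar chains Col1a1, Col1a2, Col3a1, Col5a1 and Col5a2 was 1423 and 1486 CPM in cKO libraries, against 1298 and 1801 CPM in controls. The controls spanned the cKO libraries. Type IV chains are not in that sum. Col4a1 had 778 and 753 CPM in cKO libraries, against 825 and 1024 CPM in controls. Its log2 fold change was -0.27 ± 0.11 (edgeR adjusted p = 0.702, unadjusted p = 0.0435). Col4a2 had 493 and 448 CPM in cKO libraries, against 527 and 617 CPM in controls. Its log2 fold change was -0.28 ± 0.10 (edgeR adjusted p = 0.638, unadjusted p = 0.0267). Col4a1 and Col4a2 were thus among the 5 chains with an unadjusted p under 0.05. The other type IV chains were Col4a3 at -0.08, Col4a4 at 0.74, Col4a5 at 0.12 and Col4a6 at 0.07.

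Relative to that fibrillar collagen sum in the same library, Loxl2 stood at -3.39 and -3.13 on the log2 scale in cKO libraries, against -2.08 and -2.53 in controls. P4ha1 stood at -5.14 and -4.96 in cKO libraries, against -4.13 and -4.58 in controls. For Loxl2, P4ha1, P4ha2 and Plod2 the groups did not overlap, with mean differences in log2 of -0.95, -0.69, -0.55 and -0.38. Leaving out control replicate 2 gave -0.72 for Loxl2, -0.47 for P4ha1, -0.26 for P4ha2 and -0.12 for Plod2. Leaving out control replicate 3 gave -1.18 for Loxl2, -0.92 for P4ha1, -0.84 for P4ha2 and -0.64 for Plod2. With all libraries, the exact permutation p was 0.333 for each of these 4 genes, the smallest the design allows. For the other 6 genes the groups overlapped, with mean differences between -0.21 for Plod1 and -0.02 for P4hb; that of Plod1 came to -0.03 with control replicate 2 left out and to -0.396 with control replicate 3 left out.

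Genes that work beside these enzymes were read from lists. Of 12 partners in collagen folding and modification (median log2 fold change -0.02) none passed; Colgalt1, which adds galactose to hydroxylysine, had the smallest p (102 and 107 CPM in cKO libraries, 117 and 124 CPM in controls, log2 fold change -0.20 ± 0.08, adjusted p = 0.702). Of 6 tested procollagen processing genes (median 0.0003) none passed, with Adamts3, which cleaves the amino-terminal propeptide, at -0.38 ± 0.17 (adjusted p = 0.708). Of 13 tested elastic fibre genes (median -0.04) none passed, with Ltbp4, which helps to assemble elastin, at -0.41 ± 0.14 (adjusted p = 0.573). At an unadjusted p under 0.05 stood 1 partner and 0 processing genes, and among elastic fibre genes 1 lower and 1 higher. The shares over all genes tested were 3.58% lower and 3.39% higher. DESeq2 and limma-voom called 0 in each of these 3 lists.

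P4hb's fellow oxidoreductases and chaperones of the endoplasmic reticulum had a median of -0.11, and 0 of 14 passed edgeR's test, 0 at an unadjusted p under 0.05 and 0 by DESeq2 or limma-voom. Of the 14 log2 fold changes 13 were negative. Both cKO libraries lay below both controls in 4 and above them in 0, against 18.8% and 19.4% of all genes tested. Ero1l, the oxidase that reloads protein disulfide isomerase and a known HIF-1 target in human cells, had 94.9 and 103 CPM in cKO libraries, against 120 and 109 CPM in controls (log2 fold change -0.20 ± 0.09, adjusted p = 0.708). Against 0.365% of all genes tested, 1 of 8 other protein-hydroxylating oxygenases fell. This was Egln1, the prolyl hydroxylase that marks HIF subunits for destruction, with 58.8 and 63.5 CPM in cKO libraries, against 112 and 109 CPM in controls (log2 fold change -0.85 ± 0.09, adjusted p = 0.00391). Its log2 fold change lay between those of P4ha1 and Loxl2. Of 14 known HIF-1 targets 6 fell and none rose (median -0.70), where 0.365% of all genes tested fell. DESeq2 called 5 of the 14 lower and limma-voom 6. Pdk1, which restrains pyruvate dehydrogenase, had the smallest p, at -2.05 ± 0.09 (edgeR adjusted p = 2.65e-05). Egln1 and Ero1l belong to this list as well as to their own. The list was written with earlier results of these data known, so its direction is no independent evidence.

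**Figure D4:**
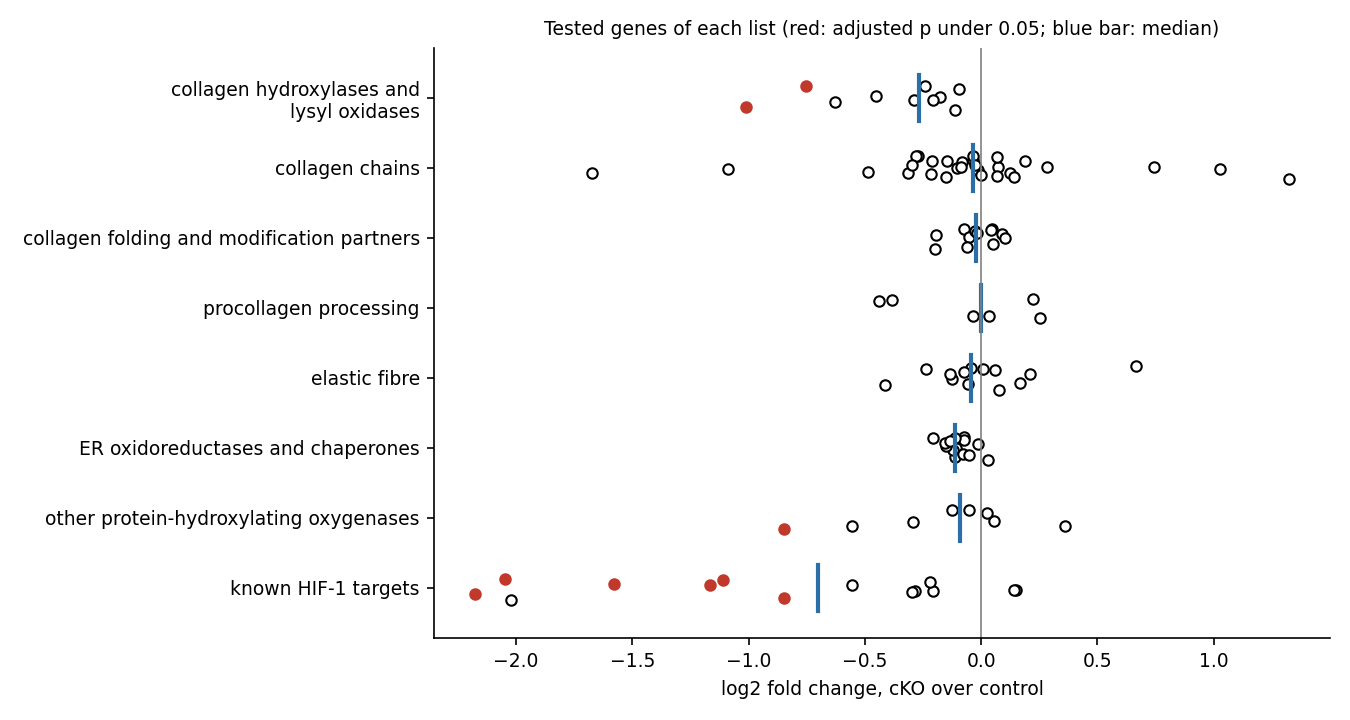
Log2 fold change, cKO over control, of every tested gene of the enzyme set and of 7 comparison lists, 1 point per gene, with red points past the test and a blue bar at the list's median. The medians are -0.27 for the enzymes and -0.70 for known HIF-1 targets, and lie between -0.11 and 0.0003 for the other lists.

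Ventricular RNA holds several cell types, and fewer cells of a type cannot be told apart from less RNA per cell. Marker levels of several cell types, none with a marker at 0 in all libraries, are set beside the enzymes here. Over all genes tested, 3.58% were lower and 3.39% higher at an unadjusted p under 0.05. All 12 tested genes of endothelium and endocardium had negative log2 fold changes (median -0.17), 0 past edgeR's test and 5 at an unadjusted p under 0.05, with 0 by DESeq2 or limma-voom; their summed level was 1558 and 1409 CPM in cKO libraries, against 1662 and 1735 CPM in controls. Of 11 epicardial markers 10 were negative (median -0.23) with 4 lower at an unadjusted p under 0.05. Of these 1 fell, the keratin gene Krt19, by 2.05-fold (log2 fold change -1.03 ± 0.16, edgeR adjusted p = 0.0347), and DESeq2 and limma-voom called it too. The epicardial sum was 419 and 328 CPM in cKO libraries, against 405 and 460 CPM in controls. Of 7 tested smooth muscle and pericyte markers 6 were negative (median -0.22), with 0 past edgeR's test and 3 at an unadjusted p under 0.05. DESeq2 called 2 of them lower (Tagln and Acta2) and limma-voom 1 (Acta2). The sum over all 8 listed markers was 912 and 1046 CPM in cKO libraries, against 1354 and 1376 CPM in controls. Acta2 held the largest part of it, with 497 and 599 CPM in cKO libraries, against 833 and 862 CPM in controls. Log2 fold changes ran from -0.63 for Acta2 to 0.30 for Rgs5, which had few reads, and Pdgfrb stood at -0.07. The sum thus follows Acta2 above all, and whether its level comes from smooth muscle cells was not tested.

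Divided by the endothelial sum of its own library, Loxl2 was lower in cKO by 0.83 on the log2 scale, P4ha1 by 0.57, P4ha2 by 0.42 and Plod2 by 0.26, with no overlap between the groups. Divided by the epicardial sum, Loxl2 was lower by 0.80 and P4ha1 by 0.54, and divided by the smooth muscle sum by 0.54 and 0.28, again without overlap. P4ha2 was lower by 0.40 against the epicardial sum, without overlap, and by 0.14 against the smooth muscle sum, where the groups overlapped. Plod2 was lower by 0.23 against the epicardial sum and came to 0.03 higher in cKO against the smooth muscle sum, and the groups overlapped in both. Divided by the heart muscle sum, Loxl2 was lower by 0.98, P4ha1 by 0.72, P4ha2 by 0.58 and Plod2 by 0.41, without overlap. Where the groups did not overlap, the exact permutation p was 0.333, the smallest the design allows. By CPM, with no such division, both cKO libraries lay below both controls in 18.8% of all genes tested, and above them in 19.4%. These ratios were chosen after the values were seen.

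Cushion and other mesenchyme markers differed between the cKO libraries. Of 9 tested, 6 were positive (median 0.33). The sum over all 10 listed was 252 and 419 CPM in cKO libraries, against 282 and 327 CPM in controls. Red blood cell markers, 11 tested and all negative (median -0.28), summed to 2842 and 6880 CPM in cKO libraries, against 5372 and 6242 CPM in controls. Of the immune markers 6 were tested (median 0.08). All 7 listed summed to 94.6 and 66.0 CPM in cKO libraries, against 88.9 and 96.2 CPM in controls. In these 3 lists edgeR, DESeq2 and limma-voom called 0, and 0 stood at an unadjusted p under 0.05. The part of any of these cells in the fall of Loxl2 and P4ha1 was not tested beyond the ratios given.

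**Figure D5:**
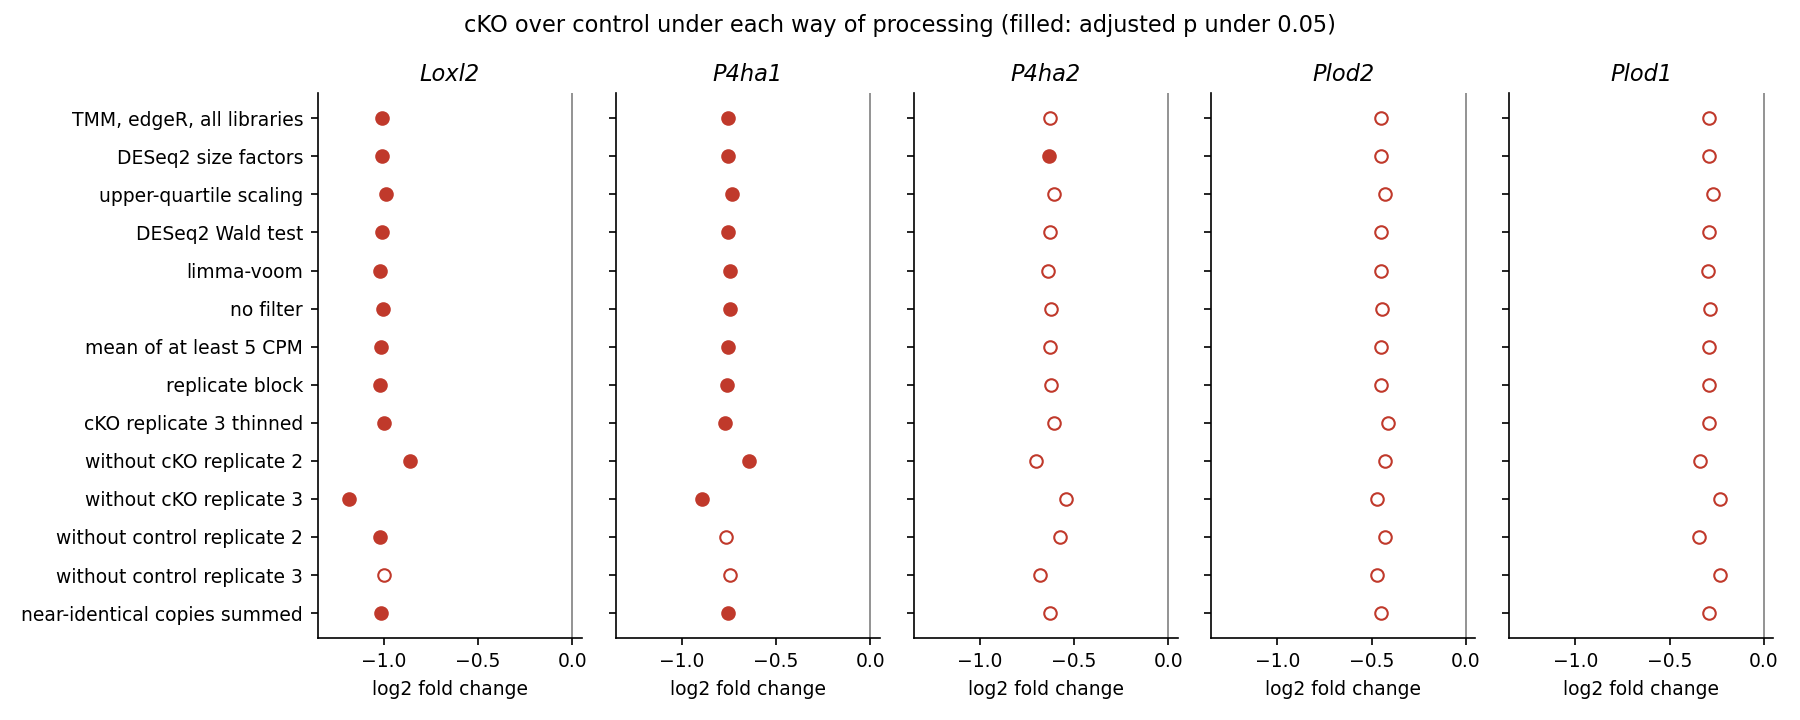
Log2 fold change, cKO over control, of the 5 genes with an unadjusted p under 0.05, under each way of processing or with 1 library left out; filled points have an adjusted p under 0.05, and the test against a 1.5-fold change is not drawn. Every point is below 0; Loxl2 is open without control replicate 3, P4ha1 is open without either control, P4ha2 is filled with DESeq2's size factors alone, and Plod2 and Plod1 are open throughout.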

How the data were processed

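The authors deposited 1 table of expected counts (estimated counts per gene, 1 column per embryo, not scaled). The submitters' processing notes name RSEM 1.2.3, cutadapt 1.3, CASAVA 1.8.2 and the build GRCm38. For annotation and settings: not given in the sources used here. Per the labels' protocols, libraries came from 500 ng of total RNA, read as single 75-base reads, which limits how reads of near-identical genes are told apart.

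Symbols, positions and transcript lengths came from GENCODE M21 (GRCm38; 36345 identifiers had a symbol), promoters from RefSeq (GRCm38.p6). Expected counts were rounded. Genes were filtered by edgeR's filterByExpr (minimum count 10, minimum total 15), scaled by TMM and compared by group with edgeR 4.0.16 (glmQLFit, glmQLFTest; R 4.3.3) on 2 residual degrees of freedom, with Benjamini-Hochberg adjustment over 13711 genes. The standard error is the log2 fold change over the square root of F, and 95% intervals use the test's t distribution. Shares and ratios used two-sided exact permutation tests (SciPy 1.17.1). Copies were sought with BLAST 2.17.0. The fit was tested on simulated data. Replicates were separate embryos and differed beyond sampling noise (chi-square over its degrees of freedom 12.2 in cKO and 5.54 in control libraries).

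Named genes were the 10 members, Loxl3 and Loxl4, and for each list up to 4 called genes by smallest p, or, where none was called, the gene of smallest p; of known HIF-1 targets, only the called gene with the smallest p; of cell type markers, no gene. Krt19, Tagln, Acta2, Rgs5, Pdgfrb, Hif1a, the type IV collagen chains, the overlapping genes and the pseudogene Gm21451 fall outside the rule and were chosen after their values were seen. The fibrillar chains are named as the parts of their sum. Members and lists were chosen with earlier results of these data known. Alternatives were DESeq2 1.42.0, limma-voom (limma 3.58.1), other scalings and filters, a 1.5-fold null, the replicate number as a block, thinning cKO replicate 3 and leaving out each library. Marker Ahsp was not in the table.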

Additional observations from a re-analysis of the deposited data

How the results depend on the processing

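The log2 fold changes of Loxl2, P4ha1, P4ha2, Plod2 and Plod1 kept their sign under all 14 alternatives to the processing, between -1.18 and -0.86 for Loxl2 and between -0.89 and -0.64 for P4ha1. Loxl2 passed under 12 of the 14, P4ha1 under 11 and P4ha2 under 1. Against a 1.5-fold change 33 genes were called, none of them among the 10. Leaving out 1 library gave 39 (without control replicate 3) to 141 (without cKO replicate 2) called genes, and among the 10 gave 2 when either cKO library was left out, 1 when control replicate 2 was and 0 when control replicate 3 was; the lone library is then assumed to vary like the other group. With the replicate number as a block, 75 genes were called, and 2 of the 10 (Loxl2 at -1.02, P4ha1 at -0.76); over genes, the deviations of libraries with equal numbers had a correlation of 0.106, and no label says what a number shares. The share of P4ha2 turned to 0.474 percentage points higher in cKO with no division by length. Over all collagen chains, the relative log2 levels of P4hb and Plod3 turned to 0.0411 and 0.0270; over smooth muscle markers that of Plod2 turned to 0.0308. With 1 library left out, these differences changed sign within their range: Lox log2 fold change -0.45 to 0.015; shares in percentage points of P4ha2 (-2.03 to 1.296), Plod1 (-0.925 to 0.536) and Loxl4 (-0.0186 to 0.0651); log2 levels relative to fibrillar collagen of P4ha3 (-0.36 to 0.10), P4hb (-0.22 to 0.18), Plod3 (-0.22 to 0.14), Lox (-0.335 to 0.0658) and Loxl1 (-0.326 to 0.0134). Without changing sign, the log2 fold changes of P4hb (-0.130 to -0.0575), Plod3 (-0.164 to -0.0527) and Loxl3 (-0.57 to -0.18) moved by over 1.5 times. Those of P4ha3 (-0.375 to -0.024) and Loxl1 (-0.372 to -0.097) did so too. So did the P4ha1 share (-9.15 to -0.893 percentage points) and the Loxl2 level relative to fibrillar collagen (-1.18 to -0.72). Not every share or relative level that moved this far is listed. The cause of these changes was not tested. Groups of 2 libraries and 2 residual degrees of freedom limit every result here.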
